A study of Lotus japonicus with 36 samples.

Results

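The step from the first to the second day of nitrate was examined in nodules of the legume Lotus japonicus, genotype MG-20. It sets the 3 libraries of group T2 (10 mM KNO3 for 2 days) against the 3 libraries of group T1 (10 mM KNO3 for 1 day), which are 6 of 36 libraries in the series. The 3 libraries of T0, untreated nodules at 4 weeks after inoculation, serve to tell which models had already moved on day 1. Later groups follow the same models: T3 to T6 (10 mM KNO3 for 3 to 6 days) and R1 to R5. The R groups had 10 mM KNO3 first and were taken on days 1 to 5 after its removal. All groups carry the same genotype, and the plants of T1 and T2 received the same salt. No group on another potassium salt, and no untreated group of the age of T1 or T2, is analysed here, so the effects of nitrate, potassium and plant age cannot be told apart. Nodules were taken as whole organs, so a level can change with fewer cells of a type or with less RNA per cell, and these cannot be told apart. Libraries sharing a group are biological replicates in the words of the series.

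Root nodules house rhizobia that reduce dinitrogen to ammonium in exchange for carbon from the host. Legumes are known to restrain this symbiosis when nitrate is plentiful: nitrogen fixation falls, leghemoglobin, the protein that buffers oxygen for the bacteroids, declines, and the nodule can enter a senescence-like state that may be reversed when nitrate is withdrawn. The deposited tables list transcript models (predicted transcripts) by ID, and neither they nor the RefSeq gene table, which matched 0 of the IDs, pair these with gene names. Marker genes of the nodule could therefore not be looked up, and models are described by ID, length, level and course without any role.

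The T1 libraries held 35632314, 38681119 and 39212059 counts and the T2 libraries 42455760, 37077842 and 38481032 counts. On the log2 scale libraries of T1 correlated with each other at 0.973 to 0.975, as did those of T2, and a T1 library with a T2 library at 0.944 to 0.96. On the first principal component (in arbitrary units), on which untreated libraries lay between -103 and -86.3, T1 lay between -95.6 and -79.4 and T2 between -50.9 and -32.9. The T1 and T2 libraries did not overlap there, whereas the ranges of T0 and T1 did.

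More models were called on the second day than on any other single day of nitrate. Of 50475 models tested, 2306 were higher in T2 than in T1 (4.57% of those tested) and 1344 were lower (2.66%), 3650 in all (7.23%). Calls needed a change of at least 2-fold and an adjusted p under 0.05 (edgeR, quasi-likelihood test). The first day (T1 against T0) had 1665 calls (3.3%), the third day (T3 against T2) 1902 (3.77%) and the fourth (T4 against T3) 1018 (2.02%). The next largest was the fifth day (T5 against T4) with 2959 (5.86%), followed by the sixth (T6 against T5) with 2107 (4.17%). The second day also had the most calls with RLE size factors, without a filter, by DESeq2, with a replicate block, with counts summed per locus and in single-model loci. How many calls a step receives also depends on the scatter of its 6 libraries: without any 1 of the T1 or T2 libraries the second day had between 2523 and 3423 calls, the lowest without T1 replicate 3.

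**Figure D1:**
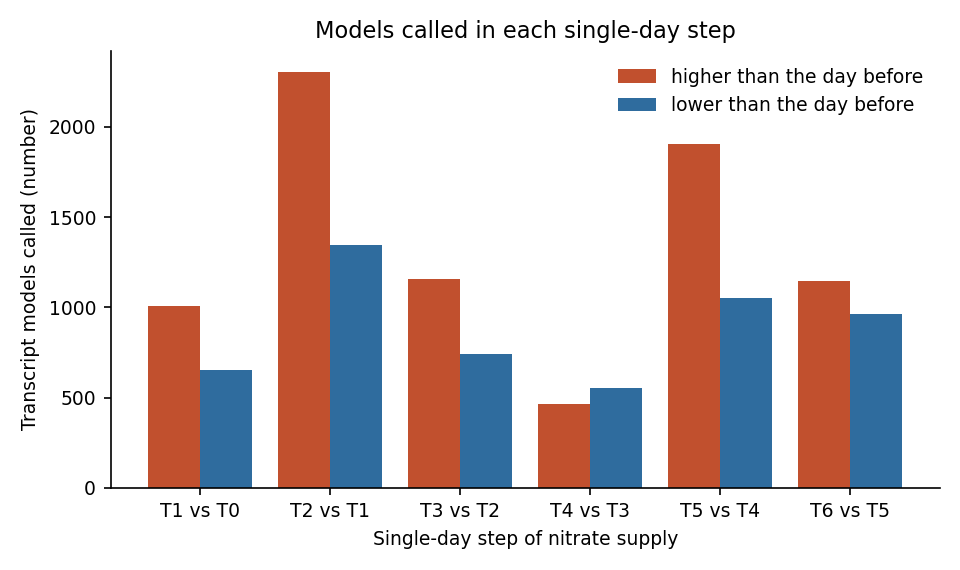
Number of transcript models (vertical axis) called higher or lower than on the day before, for each single-day step of the nitrate course (horizontal axis). The step from T1 to T2 has 2306 higher and 1344 lower models, the most in each direction.

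Rises outnumbered falls, at 63.2% of the calls. How far they did so depended on the fit: it was 58.5% with RLE size factors, 58.4% by DESeq2 (2395 higher, 1705 lower) and 52.2% in a fit of the T1 and T2 libraries alone (2196 higher, 2008 lower). Over all tested models the median log2 fold change from T1 was 0.06, so directions are given against a centre near 0. Most calls were moderate. The median called rise was 1.56 and the median called fall -1.53 on the log2 scale. At least 4-fold changes were seen in 635 risers and 396 fallers, and at least 32-fold changes in 72 and 34. Among the risers, 48 had 0 counts in all 3 T1 libraries, and among the fallers 23 had 0 counts in all 3 T2 libraries. All T2 libraries lay above all T1 libraries in 2236 of the 2306 risers, and below them in 1312 of the 1344 fallers. Over all tested models such separation was found in 21.2% upward and 16.8% downward, so separation alone is common in this step.

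The calls belonged to 3216 of 41260 loci, 2043 with higher and 1173 with lower models. In 337 loci at least 2 models were called, and in 0 of these did 2 called models move in opposite directions. Models of 1 locus can share reads, so such a locus may be a single change counted more than once; 2778 of the 3650 called models stood alone at their locus.

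By their level in untreated nodules, low models were mostly called upward and abundant ones downward. Levels are CPM, counts scaled to a TMM-adjusted library size. The T0 libraries are not in the contrast of the call, but they share its filter, scaling and estimate of the spread. Of the models with a T0 mean between 0.1 and 1 CPM, 4.95% were called higher and 1.16% lower. Between 10 and 100 CPM the shares were 3.31% and 3.32%, and between 100 and 1000 CPM 3.04% and 7.45%. Of the 80 models of 1000 CPM or more in T0, 0 were called higher and 17 lower. The pattern was seen by T0 level and not by mean level over all libraries. By mean level over the 36 libraries, 17.0% were called higher and 3.19% lower between 100 and 1000 CPM. Between 0.1 and 1 CPM of that mean the shares were 1.80% and 1.96%. That mean includes the T2 libraries of the call and the later groups, where the risers held more counts. A difference between these binnings was therefore favoured by the choice of models. A model near 0 in T0 has little room to fall and passes the filter on low counts only through groups where it is higher. The ability to detect a change also depends on level. Length differed little: the median was 1198.5 bp in risers, 1220 bp in fallers and 1223 bp in all tested models.

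The share of all counts held by the called models was followed over the groups. Such a share is relative to the other models and gives no amount of RNA. The 2306 risers together took 2.57 ± 0.30% of counts in T0 (SD, n = 3), 3.36 ± 0.45% in T1 and 9.23 ± 1.11% in T2. They kept gaining afterwards, to 14.7 ± 2.79% in T3 and 27.3 ± 1.81% in T6. The 1344 fallers took 14.2 ± 0.82% in T0, 11.9 ± 0.71% in T1, 4.10 ± 0.39% in T2 and 1.18 ± 0.11% in T6. Values of T1 and T2 chose the models and are a description. After withdrawal of nitrate the risers stood at 24.1 ± 0.86% in R1 and 10.1 ± 2.87% in R5, and the fallers at 1.03 ± 0.08% and 11.4 ± 3.04%. By R5, on day 5 of withdrawal, the fallers thus held about the share of counts they had in T1, with libraries between 8.53% and 14.6%.

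**Figure D2:**
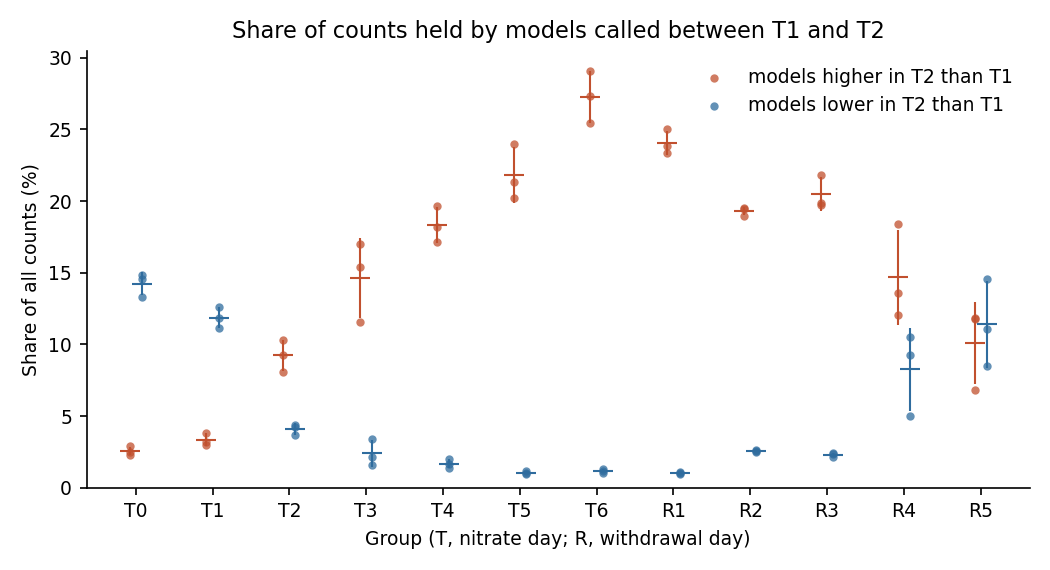
Share of all counts (%, vertical axis) held by the models called higher or lower in T2 than in T1, in every library of each group (horizontal axis). Points are libraries, and bars are the mean ± SD of 3; the lower models drop from 11.2 to 12.6% in T1 to 3.65 to 4.38% in T2.

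The loss was concentrated in few models, the gain spread over many. Among the fallers the 5 largest losses made up 57.6% of the summed CPM lost, and the 50 largest 81.4%. Among the risers the 5 largest gains made up 14.6% and the 50 largest 39.8%. The largest loss was that of a short model of 471 bp, which had 25800, 20800 and 24200 CPM in T1 and 8570, 7300 and 10300 CPM in T2. Its T0 libraries, at 18500 to 28300 CPM, enclosed those of T1, and its fall on day 2 was by 1.43 ± 0.30 on the log2 scale (SE, edgeR adjusted p = 0.00168). A second model of the same locus was also among the 5 largest losses, and 0% of the count values of either model were whole. Reads of both were thus divided with other models, possibly with each other. The second largest loss was in a model of 558 bp alone at its locus, with 61.1% of its count values whole, so it shares part of its reads. All T1 libraries of this model lay below its T0 libraries, but it was not called on day 1. It stood at 19100, 17000 and 14500 CPM in T0, at 13300, 10800 and 12800 CPM in T1 and at 2590, 1860 and 2490 CPM in T2 (log2 fold change T2 against T1 -2.41 ± 0.42, edgeR adjusted p = 0.000302).

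The largest gain in counts was in a continuing model of 1425 bp. It had 763, 630 and 753 CPM in T0, 4750, 3410 and 3330 CPM in T1, and 7550, 8110 and 9610 CPM in T2 (log2 fold change 1.14 ± 0.21, edgeR adjusted p = 0.000598). Its 3 groups do not overlap, and T2 was its high point among the groups T0, T1, T2, T3, T6 and R5: it was back at 5180 ± 341 CPM in T3 and stood at 5440 ± 258 CPM in T6. The other 4 of the 5 largest gains were new movers, and each gained between 701 and 880 CPM.

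Every model called on the second day was placed in 1 of 3 classes by its call on the first. A continuing model was called in the same direction on day 1 (T1 against T0), a reversing model in the opposite direction, and a new mover not at all. Both comparisons use the T1 libraries, with opposite sign. A chance extreme in T1 therefore favours reversing and works against continuing, and the class counts carry no test.

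New movers made up most of the step. They numbered 2037 among the risers (88.3%) and 1245 among the fallers (92.6%), beside 236 and 90 continuing and 33 and 9 reversing models. Seen from day 1, of the 1010 models that had risen (2% of those tested), 236 rose again, 9 fell back and 765 (75.7%) had no call on day 2. Of the 655 models that had fallen on day 1 (1.3% of those tested), 90 fell further, 33 rose back and 532 (81.2%) had no call. Of the day-1 risers 23.4% were called higher and 0.891% lower on day 2, and of the day-1 fallers 13.7% were called lower and 5.04% higher. Among all tested models 4.57% were called higher and 2.66% lower, so the share of day-1 fallers that rose back lay near that of all models. Single libraries changed these small classes, and without T1 replicate 2 more of the day-1 fallers rose back (69) than fell further (40). Continuing risers numbered 151 without T1 replicate 1 and 130 without T1 replicate 2. Continuing fallers numbered 40 without either of these, 50 without T1 replicate 3, 57 without T0 replicate 1 and 46 without T0 replicate 2. There were 12 reversing risers without T1 replicate 1 and 20 without T2 replicate 2, and reversing fallers ranged from 4 (without T1 replicate 3 or T0 replicate 3) and 5 (without T0 replicate 2) to 15 (without T1 replicate 2).

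A model called only on day 2 need not have a day-2 step that differs from its day-1 step. Among the new risers, 1243 had a day-1 change within 0.5 of 0 on the log2 scale and 149 had dropped at least 2-fold on day 1 without passing the test. Another 120 had already risen at least 2-fold without passing, and 54 had passed the adjusted p with a smaller rise. Among the new fallers the day-1 change lay within 0.5 of 0 in 633 models, and 116 had dropped at least 2-fold without passing. The difference between both steps, (T2 - T1) - (T1 - T0), was therefore tested itself. It passed edgeR's adjusted p in 453 models (0.897% of those tested), 335 with the higher step on day 2 and 118 with the lower. New movers accounted for 220 of these, which is 220 of the 3282 new movers. For the other 3062 new movers these libraries do not show that day 2 differed from day 1. An unadjusted p under 0.05 was found in 1833 of the new movers, a count without the share of all tested models beside it. The T2 against T1 values that chose the new movers also enter this contrast, which favours a low p in them. The test passed in 0 of the 326 continuing models and in 38 of the 42 reversing models, a class that opposite calls define. The T1 libraries enter this contrast through both steps, and it depended on them: the count was 32 without T1 replicate 1 and 68 without T1 replicate 3. Without T2 replicate 1 or 2 it was 219 or 235, and without T0 replicate 2 or 3 it was 213 or 276. It was 1289 by DESeq2 and 1489 in a fit of T0, T1 and T2 alone, so its size is not settled by these data.

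New risers began low. Their median level was 1.52 CPM in T0, 1.57 CPM in T1 and 5.08 CPM in T2, and 822 of the 2037 had a T1 mean under 1 CPM. Before day 2, 26 of them had 0 counts in all T0 and T1 libraries. No share of all tested models stands beside these counts. New fallers came from a higher level, with medians of 5.25 CPM in T0, 4.00 CPM in T1 and 1.36 CPM in T2. Over all tested models the medians were 2.38 CPM in T0, 2.36 CPM in T1 and 2.48 CPM in T2. The call itself favours a low T1 in risers and a high T1 in fallers, so the T1 levels are a description.

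The largest new rises by the rule for named models (at least 10 CPM in the higher group, no overlap of libraries, alone at the locus) were those of Lj0g3v0079899.1 and Lj0g3v0077119.1. Lj0g3v0079899.1, of 1237 bp, had 0.129, 0.355 and 1.52 CPM in T0, 0.52, 0.368 and 0 CPM in T1, and 6.4, 73.4 and 16.3 CPM in T2. T2 replicate 2 was the highest, but the lowest T2 library still exceeded every T0 and T1 library. Its log2 fold change from T1 to T2 was 6.76 ± 0.85 (SE, edgeR adjusted p = 1.03e-05), and its day-2 step exceeded its day-1 step (difference 8.0 ± 1.59, edgeR adjusted p = 0.0122). The day-2 change was 5.26 without T2 replicate 2, 7.36 without T1 replicate 1 and 6.15 without T1 replicate 3. The level went on to 490 ± 258 CPM in T3 and 1080 ± 334 CPM in T5, and was 59.3 ± 12.1 CPM in R5.

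Lj0g3v0077119.1, of 1473 bp, had 0.129, 0.0591 and 1.32 CPM in T0, 0.219, 0.368 and 0.448 CPM in T1, and 4.15, 74.9 and 14.7 CPM in T2. As in the model before it, the libraries of T2 differed widely among themselves, with replicate 2 the highest and replicate 1 the lowest. From T1 to T2 it rose by 6.48 ± 0.86 on the log2 scale (SE, edgeR adjusted p = 2.11e-05), and this step exceeded that of day 1 by 7.08 ± 1.63 (edgeR adjusted p = 0.0318). Without T2 replicate 2 the day-2 change was 4.75. It reached 1110 ± 173 CPM in T5 and stood at 48.7 ± 23.2 CPM in R5.

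The largest new falls were in models that had been higher in T1 than in T0 without a call. Lj0g3v0347469.1, of 530 bp, had 1.77, 3.75 and 0 CPM in T0, 11.8, 11.7 and 16.1 CPM in T1, and 0.0843, 0 and 0.248 CPM in T2. T1 stood above every T0 library and every T2 library. Its log2 fold change from T1 to T2 was -6.87 ± 1.29 (SE, edgeR adjusted p = 0.000593), after 2.85 ± 0.97 on day 1 (edgeR adjusted p = 0.0646), and the difference of the steps was -9.72 ± 1.73 (edgeR adjusted p = 0.00576). The day-2 change was -8.09 without T2 replicate 3. Its mean lay between 0.158 and 2.57 CPM from T3 to R4, and R5 had 18, 0.777 and 2.91 CPM, with replicate 1 above every T1 library.

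Lj0g3v0112859.1, of 1064 bp, had 46.9, 18.8 and 31.7 CPM in T0, 102, 11.1 and 384 CPM in T1, and 1.6, 8.44 and 1.37 CPM in T2. The 3 T1 libraries lay far apart, and T1 replicate 2 fell below all of T0 and only just above the highest T2 library. The log2 fold change from T1 to T2 was -5.45 ± 1.17 (SE, edgeR adjusted p = 0.00195), -3.94 without T1 replicate 3, -6.80 without T2 replicate 2 and -4.57 with a replicate block. Its level did not settle afterwards: it was 0.303 ± 0.3 CPM in T4, 184 ± 57.4 CPM in T6, 3.32 ± 1.13 CPM in R2 and 193 ± 79.4 CPM in R3.

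Continuing models took both steps in 1 direction and ended day 2 farther from T0. In the 236 continuing risers the median log2 fold change was 1.70 on day 1 and 1.38 on day 2, and median levels were 1.70 CPM in T0, 5.55 CPM in T1 and 17.9 CPM in T2. In the 90 continuing fallers the median changes were -1.38 and -1.51, and median levels were 34 CPM, 12.4 CPM and 4.67 CPM. Continuing risers were shorter, with a median of 722.5 bp beside 1223 bp in all tested models, and continuing fallers longer, with 1500.5 bp. Neither length difference was tested.

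Lj2g3v1058050.1, of 1769 bp, was the continuing riser with the largest day-2 change. It had 0.742, 0.975 and 1.95 CPM in T0, 4.74, 12.3 and 1.62 CPM in T1, and 73.5, 155 and 53.9 CPM in T2. T1 replicate 3 still lay within the T0 range, while all T2 libraries lay far above both groups. The log2 fold change was 2.32 ± 0.50 on day 1 (SE, edgeR adjusted p = 0.00342) and 3.92 ± 0.49 on day 2 (edgeR adjusted p = 9.87e-06), a difference of 1.59 ± 0.82 that did not pass (edgeR adjusted p = 0.466). Without T1 replicate 2 the day-2 change was 4.89. It climbed further to 607 ± 63.3 CPM in T4.

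Lj0g3v0200689.1, of 923 bp, had 1.68, 0.768 and 1.39 CPM in T0, 8.35, 7.4 and 6.72 CPM in T1, and 49.5, 83.6 and 47.6 CPM in T2. Its 3 groups formed separate tiers with no overlap. The log2 fold change was 2.55 ± 0.43 on day 1 (SE, edgeR adjusted p = 0.000361) and 3.01 ± 0.40 on day 2 (edgeR adjusted p = 2.23e-05). Its later nitrate-day means lay between 45.5 CPM in T3 and 93.6 CPM in T6, beside 60.2 ± 20.3 CPM in T2, a group that helped choose the model.

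Among the continuing fallers Lj3g3v0950710.1, of 1521 bp, had 143, 161 and 47.2 CPM in T0, 19.3, 20.1 and 35.9 CPM in T1, and 2.19, 7.32 and 1.12 CPM in T2. The groups did not overlap, although T0 replicate 3 came near the highest T1 library. On the log2 scale the change was -2.22 ± 0.65 on day 1 (SE, edgeR adjusted p = 0.0307) and -2.83 ± 0.68 on day 2 (edgeR adjusted p = 0.00523), or -3.91 without T2 replicate 2. Of its count values 61.1% were whole, so part of its reads are shared with other models. It was near 0 in T4, at 0.0165 ± 0.0287 CPM, and stood at 86.8 ± 50.3 CPM in R5.

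Lj2g3v1804130.1, of 1462 bp, had 39.9, 47.4 and 27.6 CPM in T0, 10.8, 7.81 and 13.5 CPM in T1, and 2.32, 1.74 and 1.66 CPM in T2. Here too each day formed its own tier. Its log2 fold change was -1.84 ± 0.52 on day 1 (SE, edgeR adjusted p = 0.0244) and -2.49 ± 0.55 on day 2 (edgeR adjusted p = 0.00264). It was at 0.0431 ± 0.0374 CPM in T6 and at 25.2 ± 16.2 CPM in R5.

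**Figure D3:**
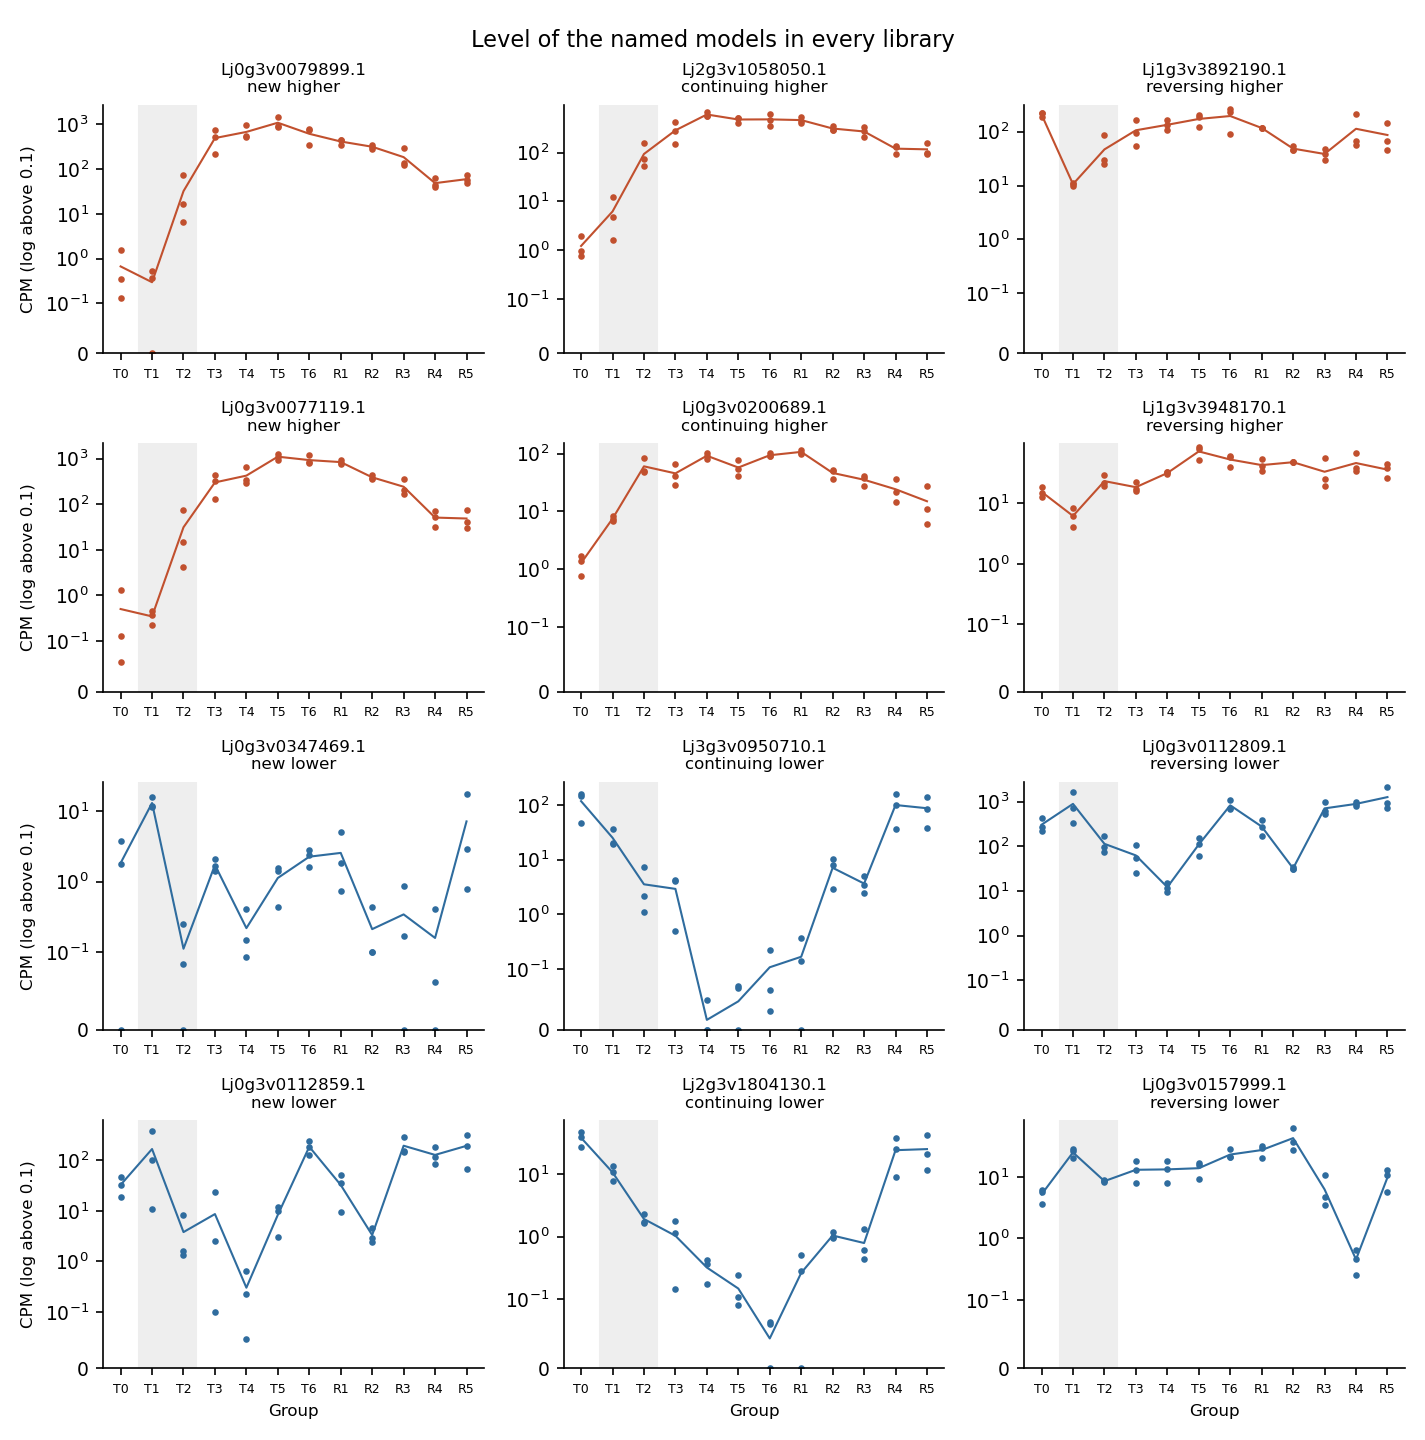
CPM (vertical axis, logarithmic above 0.1 and linear below) of the 12 named models in every library of the 12 groups (horizontal axis). Points are libraries, lines join group means, and the shaded band marks T1 and T2, across which Lj0g3v0200689.1 goes from 6.72 to 8.35 CPM in T1 to 47.6 to 83.6 CPM in T2.

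Reversing models are described only by their levels, since opposite calls that share T1 chose them, and a chance extreme in T1 alone would give a return of about the whole day-1 change. The 33 models that had fallen on day 1 and rose on day 2 had a median level of 5.95 CPM in T0, 2.15 CPM in T1 and 6.54 CPM in T2. They belong to 29 loci, and several had nearly the same values as another, also at a different locus. They therefore hold fewer separate courses than 33, and 8 of them had a T0 mean under 1 CPM. Their day-2 rise was between 50% and 215% of their day-1 fall on the log2 scale, with a median of 108%. The 9 models that had risen and then fell had median levels of 4.15, 24.9 and 3.01 CPM, and their day-2 fall was between 68.3% and 260% of the day-1 rise, with a median of 105%. Of these 9, 4 had a T0 mean under 1 CPM. In T2 against T0, where 19.1% of all tested models were called, 37 of the 42 had no call; these comparisons share libraries with those that chose the class, and a missing call does not show equal levels. Later the median of the 33 risers stayed above T0, by 0.14 to 0.66 in log2(mean CPM + 1) from T3 to R5.

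**Figure D4:**
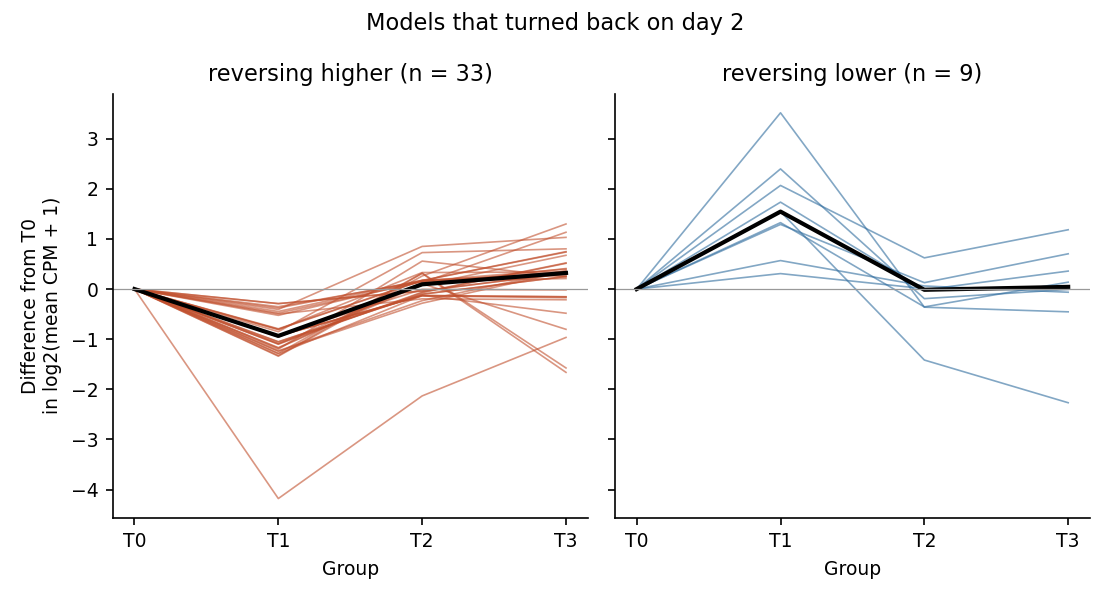
Difference from T0 in log2(mean CPM + 1) (vertical axis) over groups T0 to T3 (horizontal axis) for the 33 reversing risers and the 9 reversing fallers. Thin lines are models and the black line is the median, which for the risers is -0.93 in T1 and 0.10 in T2.

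Lj1g3v3892190.1, of 1741 bp, had the deepest day-1 fall of the reversing risers and regained only part of it. It had 221, 220 and 184 CPM in T0, 11.3, 10.5 and 9.85 CPM in T1, and 25.5, 85.6 and 29.2 CPM in T2. All T2 libraries lay between the T1 and T0 libraries, with T2 replicate 2 the nearest to T0. Its log2 fold change was -4.30 ± 0.54 on day 1 (SE, edgeR adjusted p = 8.17e-06) and 2.15 ± 0.49 on day 2 (edgeR adjusted p = 0.00334). The day-2 value was 1.37 without T2 replicate 2 and did not then pass the test.

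Lj1g3v3948170.1, of 1773 bp, rose back to just above its starting point. It had 15.1, 12.6 and 18.9 CPM in T0, 4.00, 8.45 and 6.12 CPM in T1, and 19.2, 28.9 and 21.9 CPM in T2. T1 lay below both other groups, and T2 lay just above T0 without a call against it (log2 fold change 0.59 ± 0.31, edgeR adjusted p = 0.146). From T1 to T2 it rose by 1.91 ± 0.32 on the log2 scale (SE, edgeR adjusted p = 0.000232), and it was at 72.2 ± 17.8 CPM in T5.

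Lj0g3v0112809.1, of 892 bp, was the reversing faller with the largest day-2 change under the naming rule. It had 423, 275 and 219 CPM in T0, 728, 333 and 1620 CPM in T1, and 75.3, 172 and 94.6 CPM in T2. T1 replicate 2 lay within the T0 range, so the day-1 rise (log2 fold change 1.55 ± 0.49, edgeR adjusted p = 0.0475) rests on the other two libraries. Every T2 library lay below every T0 and T1 library, and the log2 fold change from T1 to T2 was -2.97 ± 0.52 (SE, edgeR adjusted p = 0.000302), or -2.25 without T1 replicate 3. Like Lj0g3v0112859.1 it was low in T4 and R2 and high in T6 and R3, with 12.2 ± 2.76 CPM in T4, 831 ± 219 CPM in T6, 32.2 ± 1.82 CPM in R2 and 709 ± 255 CPM in R3. Of its count values 58.3% were whole, so it shares part of its reads. In both models T1 replicate 3 was the highest T1 library and replicate 2 the lowest.

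Lj0g3v0157999.1, of 1121 bp, had 5.74, 6.15 and 3.64 CPM in T0, 20.2, 26.6 and 27.9 CPM in T1, and 8.57, 8.81 and 8.14 CPM in T2. T1 stood above both other groups with no overlap, and T2 lay above all of T0. The log2 fold change was 2.27 ± 0.39 on day 1 (SE, edgeR adjusted p = 0.000431) and -1.55 ± 0.38 on day 2 (edgeR adjusted p = 0.0058).

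In later libraries most of the called models were displaced in the same direction. These libraries are not in the contrast that gave the calls, but they share its filter, scaling and estimate of the spread. T3 against T0 shares no library with T2 against T1. Of the 2306 risers 80.4% were called higher in it and 0.26% lower, beside 13.1% and 10.8% of all tested models. Of the 1344 fallers 79.7% were called lower and 0.521% higher. In T6 against T0, 86.3% of the risers were called higher (20.4% of all tested models) and 79.8% of the fallers lower (19.4%). The 53 fallers called higher in T6 and the 38 risers called lower are the exceptions, at 3.94% and 1.65%.

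Most risers had their highest mean on a later day than the second. Over groups T0 to T6 the highest mean lay in T6 for 1276 of the 2306 risers (55.3%), in T5 for 419 and in T2 for 281 (12.2%). Of all tested models 20.1% had their highest mean in T6, 16.3% in T5 and 11.1% in T2, so the shares of risers in T5 (18.2%) and T2 lay near those of all models. Among the 1344 fallers the lowest mean lay in T6 for 531 (39.5%), in T4 for 330 (24.6%) and in T2 for 257 (19.1%). Of all tested models 24.2% had their lowest mean in T6, 11.5% in T4 and 8.55% in T2. The T2 libraries are part of the call, which favours T2 as an extreme.

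The group medians place the classes at different distances from T0 by day. The median difference from T0 of the new risers, in log2(mean CPM + 1), was 1.08 in T2 and 2.30 in T6. Continuing risers were at 2.35 in T2 and at 2.89 in T6. The T2 values helped choose the new and continuing models, which favours a large displacement in T2. New fallers were at -1.27 in T2 and -1.42 in T6, and continuing fallers at -2.47 and -3.18. This scale understates changes of models at low level, which are frequent among the new risers. Whether the courses of the classes differ was not tested.

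**Figure D5:**
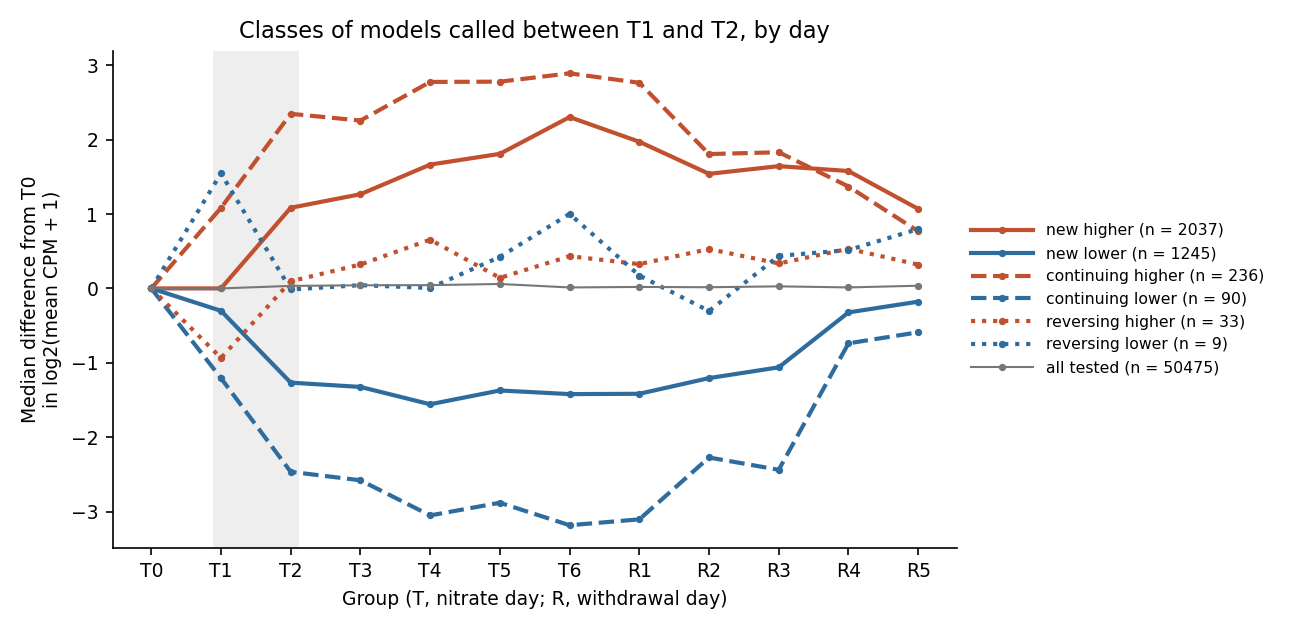
Median difference from T0 in log2(mean CPM + 1) (vertical axis) in each group (horizontal axis) for the 6 classes of models called between T1 and T2 and for all tested models. The shaded band marks T1 and T2; new risers are at 1.08 in T2 and 2.30 in T6, and new fallers at -1.27 and -1.42.

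After withdrawal of nitrate most of the called models were called back in the other direction. R5 against T6 compares none of the T0, T1 or T2 libraries, though all share the fit and its estimate of the spread. In it 69.8% of the risers were called lower (13.3% of all tested models) and 0.867% higher, and 76.9% of the fallers were called higher (15.7% of all tested models) and 1.49% lower. By class, 91.5% of the continuing risers and 68.0% of the new risers were called lower in R5 than in T6. The shares called higher were 86.7% of the continuing fallers and 76.8% of the new fallers. The reversing models were spread over both directions, with 5 of the 33 reversing risers called higher and 7 lower, and 0 of the 9 reversing fallers called higher and 3 lower. In R5 the medians of the new and continuing risers still lay above T0, at 1.07 and 0.77, and those of the new and continuing fallers below it, at -0.18 and -0.59.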

How the data were processed

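RNA was extracted with a TransZol Plant kit and sequenced from NEBNext Ultra II libraries, per the labels. The submitters' processing notes name fastp 0.22.0, HISAT2 and featureCounts, with genome build, annotation and strand setting not given in the sources used here. The deposited count table holds estimated counts, and 49.6% of its values were not whole (tolerance 0.001). A second table holds FPKM values for the same 50526 rows. FPKM, as deposited by the authors, served only to derive model lengths. 1 row with another kind of ID held 0.00595% of counts and stayed in the fit. Reads were divided over models, and 3753 rows had counts identical to another row, so a change can belong to a partner model.

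Counts were rounded and fitted with edgeR 4.0.16 (R 4.3.3, TMM, filterByExpr, glmQLFit and glmQLFTest) to all 36 libraries, with 1 estimate of the spread for every group. P-values were adjusted by Benjamini-Hochberg over 50475 models. A call needed an adjusted p under 0.05 and a log2 fold change of at least 1. The SE beside a log2 fold change is its absolute value divided by the square root of the test's F statistic. It is thus derived from the test and is no separate measure of spread. Principal components used 500 models and log2 CPM with prior count 2; day medians used a pseudocount of 1 CPM. The procedure was tested on simulated data. Pairs of libraries within T1 and T2 differed with a chi-square of 15.4 to 22.7 per degree of freedom, so none was taken for a duplicate. For each class the 2 largest rises and 2 largest falls were named. DESeq2 1.42.0, RLE size factors, no filter, other fold thresholds, locus sums, single-model loci, a replicate block, fits of fewer groups and leaving out each library were alternatives. The members and lists were chosen with earlier results of these data known. The bins by T0 level were chosen after seeing the data.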

Additional observations from a re-analysis of the deposited data

Results flagged for a closer look

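The step of day 2 differed from the step of day 1, by edgeR's test of the difference itself, in 453 models. Among the named models the difference (day-2 step minus day-1 step, log2 scale) was 8.0 in Lj0g3v0079899.1, 7.08 in Lj0g3v0077119.1, 6.45 in Lj1g3v3892190.1 and 3.23 in Lj1g3v3948170.1. It was -9.72 in Lj0g3v0347469.1, -7.80 in Lj0g3v0112859.1, -4.52 in Lj0g3v0112809.1 and -3.82 in Lj0g3v0157999.1. The 4 reversing models were chosen by opposite calls in both steps, and the 4 new movers as the largest day-2 changes without a day-1 call, so none of these differences is independent of the choice. The 4 named continuing models did not pass this test.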

How the results depend on the processing

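With at least 4-fold in place of 2-fold, 1031 models were called (635 higher, 396 lower), of which 593 and 382 were new movers, 38 and 9 continuing and 4 and 5 reversing. With no fold threshold, 7472 models passed the adjusted p (4606 higher, 2866 lower), of which 3738 and 2484 were new movers, 732 and 362 continuing and 136 and 20 reversing. DESeq2 gave 73 reversing risers beside 33 and 1289 models with differing steps beside 453. A fit of only the libraries compared gave 221 continuing fallers beside 90, 25 reversing fallers beside 9 and 1489 differing steps; the cause was not tested.

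Leaving out 1 library at a time gave 2523 to 3423 calls, 1562 to 2218 higher and 961 to 1251 lower. New risers then numbered 1381 to 2008 and new fallers 895 to 1312, continuing risers 130 to 217 and continuing fallers 40 to 81, reversing risers 12 to 69 and reversing fallers 4 to 15, and differing steps 32 to 516. Without T1 replicate 1, 2582 of the 3650 called models were still called in the same direction, and without T1 replicate 3, 2408; 0 turned. Such fits have fewer libraries.

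Same-numbered libraries of T1 and T2 did not deviate together (correlations -0.287, -0.0740 and -0.001 over 33591 models), so the numbers were not taken as pairs. With the replicate block 3544 models were called (2273 higher, 1271 lower) and 328 steps differed. Of 199 counts under alternatives 156 stayed within 1.5 times the reported count. All 156 values of the 12 named models kept their direction, and 155 their call, the exception being Lj1g3v3892190.1 at 1.37 without T2 replicate 2. Models under 1 CPM rest on few counts, and a missing call there says little.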
